A study of Mus musculus with 6 samples.

Results

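The genes of myelin and of the oligodendrocytes that make it were followed in the retinal RNAseq of control and EFV-treated 5XFAD mice. The genes were Mbp, Mobp, Mog, Mag, Cnp, Mal, Cldn11, Bcas1 and Ugt8a, taken by symbol, which is 9 of the 19401 genes and regions listed in at least 1 library. Each of the 6 libraries was a pool of retina plus retinal pigment epithelium (RPE) from 5 to 6 mice, with 1 retina per mouse, so replicate error here is that of pools and says nothing of single animals. All mice, controls included, were males of 9 months of age on the B6SJL background and were hemizygous for the 5XFAD transgenes, mutant human amyloid precursor protein and presenilin 1, which in this line are driven by the neuronal Thy1 promoter. The 3 EFV pools came from mice that drank efavirenz, an anti-HIV drug that at low dose activates the cholesterol hydroxylase CYP46A1, in water from 3 to 9 months of age at 0.08 mg/kg per the labels (the study's methods give a different dose), whereas the 3 control pools came from mice that drank water with the vehicle only.

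Oligodendrocytes wrap axons of the central nervous system in a sheath of stacked membrane, in which Mbp and Mobp help to hold the layers together and galactolipids form much of the lipid. Mog lies on the outermost layer of this sheath, Mag on the layer that faces the axon, and Cldn11 in the seams between turns. In the mouse, the axons of the retinal ganglion cells carry no myelin inside the eye and are wrapped only behind it, in the optic nerve, and a normal mouse retina holds no oligodendrocytes. Several of these genes are also transcribed outside the oligodendrocyte lineage, and in a bulk sample fewer cells of a type and less RNA per cell cannot be told apart.

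The 6 libraries held 23455199 to 24590294 expected counts. The tissue label was checked against rod markers: 8 rod genes together held 61014 to 68346 counts per 1000000 scaled counts (CPM), and the 9 myelin genes together held 56.4 to 72.5 CPM. Control 3 stood apart by its lens genes, with 1822 CPM over 8 markers against 16.8 to 92.9 CPM in the other libraries. Fold changes without control 3 are given below for Mbp and Cldn11, the tested myelin genes that passed a threshold or did not overlap.

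Mobp and Mog are both markers of oligodendrocytes with few counts here, and the sequences upstream of their starts are shown as those of the least abundant of the 9 genes. Whether their patterns over the libraries differ was not tested. Mobp, which encodes a small basic protein of compact myelin found almost solely in oligodendrocytes, had 0, 1 and 0 expected counts in control 1, 2 and 3, and 14, 0 and 11 in EFV 1, 2 and 3. Mog, the surface protein of the outermost layer and a marker of mature oligodendrocytes, had 5, 0 and 3 counts in the control pools and 5, 2 and 3 in the EFV pools. All but 1 of the Mobp counts lay in 2 of the 3 EFV pools, and Mog was at a few counts in both groups. The 250 bases before each annotated start, from RefSeq on GRCm38.p6, read 5′ to 3′ on the strand of the gene, with matches to ACAAAG or its complement CTTTGT in capitals. ACAAAG is a core of the sites that Sox proteins, among them Sox10 of oligodendrocytes, can bind. It was chosen after these sequences had been read.
Mobp (chr9:120149492-120149741, plus strand): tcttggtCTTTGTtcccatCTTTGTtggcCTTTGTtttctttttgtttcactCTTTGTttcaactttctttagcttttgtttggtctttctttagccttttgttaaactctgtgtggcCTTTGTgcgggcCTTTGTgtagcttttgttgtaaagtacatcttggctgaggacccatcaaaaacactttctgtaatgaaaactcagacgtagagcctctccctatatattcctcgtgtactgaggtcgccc
Mog (chr17:37023399-37023648, minus strand): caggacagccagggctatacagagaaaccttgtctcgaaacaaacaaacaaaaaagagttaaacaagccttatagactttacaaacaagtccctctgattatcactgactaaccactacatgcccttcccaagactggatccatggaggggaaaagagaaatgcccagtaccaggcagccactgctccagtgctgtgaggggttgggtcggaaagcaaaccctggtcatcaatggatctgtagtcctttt
The Mobp window held 6 matches, none overlapping, the nearest 115 bases before the start, and the Mog window held 0. Of the 32851 promoters in the RefSeq table, 16.5% held at least 1 match in a window of this length, and 1 promoter (0.00304%), that of Mobp, held 6. Among the other genes, Cnp had 1 match, Mag had 1 match, shared by 2 overlapping windows of its 3 promoters, and Mal, Cldn11 and Ugt8a had 0. The promoters of 7 of the 9 genes were in the table. A match is a string of letters and was not linked to any count here.

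The 9 genes fell into 3 ranges of level per length. By FPKM averaged over the 6 libraries, Mbp (9.68) and Cnp (7.35) were the highest, and their ranges over the libraries, 7.98 to 13.7 for Mbp and 6.62 to 8.18 for Cnp, overlapped. Mal followed at 1.50 (1.25 to 1.94), separate from Cnp above it and from Cldn11 below it. The other 6 genes lay between 0.308 FPKM for Cldn11 and 0.065 FPKM for Mobp in the order Cldn11, Ugt8a, Mag, Bcas1, Mog, Mobp, and each of these neighbours overlapped. Mbp was above 64.9% of the listed genes by mean FPKM, Cnp above 59.0% and Mal above 36.4%, whereas Mobp, Mog and Bcas1 were above 12.3% to 14.0%. So the defining oligodendrocyte genes Mobp, Mog and Mag sat near the lower end of what was listed, and Mbp and Cnp in its middle.

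**Figure D1:**
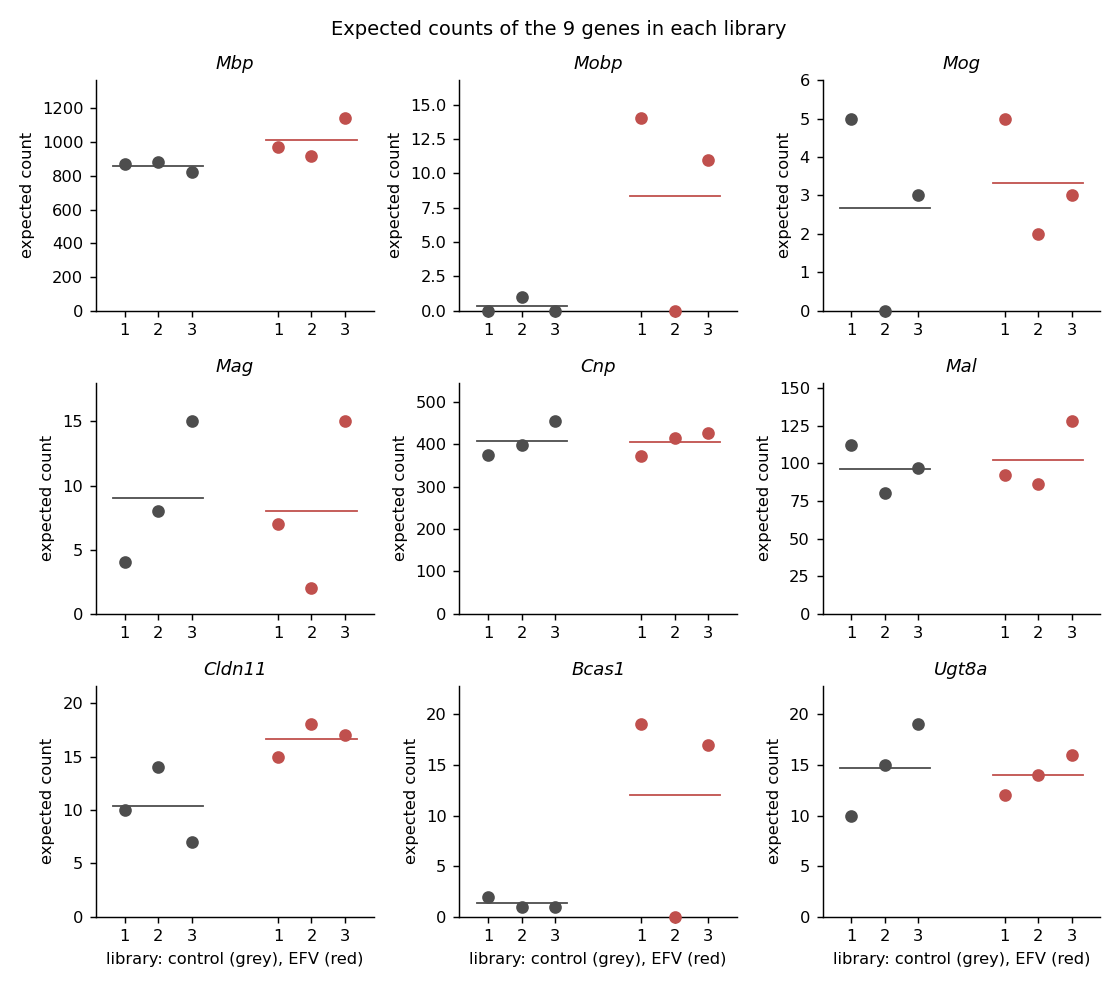
Expected counts (y axis, from 0, with its own scale in each panel) of the 9 genes in the 3 control (grey) and 3 EFV (red) libraries; each point is 1 library and each line a group mean. Mobp and Bcas1 reach 11 to 19 counts in EFV 1 and EFV 3 and 0 to 2 elsewhere, whereas Cnp, Mal and Ugt8a overlap between the groups.

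Of the proteins of compact myelin, Mbp, which joins the cytoplasmic faces of the membrane, had 873, 883 and 823 expected counts in the control pools and 974, 917 and 1142 in the EFV pools. Scaled to the library size these were 35.4, 38.2 and 33.9 CPM in control and 39.4, 37.9 and 46.6 CPM in EFV-treated mice. EFV 3 was the highest, and EFV 2 lay below control 2, so the groups overlapped on this scale. Mbp was higher in EFV-treated mice by a log2 fold change of 0.20 (SE 0.086, n = 3 pools per group, edgeR quasi-likelihood test with all genes fitted, unadjusted p = 0.0410), and the Benjamini-Hochberg adjusted p by edgeR was 0.999. Mbp thus passed the nominal threshold used here, an unadjusted p of 0.05 or less with a fold change of at least 7% above 1 in either direction, but not the adjusted one. It no longer passed without EFV 3 (0.11, edgeR unadjusted p = 0.156), without control 1 (0.20, edgeR unadjusted p = 0.0870) or without control 3 (0.17, edgeR unadjusted p = 0.121). With the replicate number as a block Mbp did not pass either (0.20, edgeR unadjusted p = 0.0635). Mbp, Mobp and Bcas1 are in the list of changed genes that the study drew from these same libraries, so their direction is no independent evidence.

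Mal, a lipid-raft proteolipid of compact myelin that epithelia also use for sorting of membrane proteins, had 112, 80 and 97 counts in the control pools and 92, 86 and 128 in the EFV pools. The highest count was again in EFV 3, and the groups overlapped. Its log2 fold change was 0.058 (SE 0.19, edgeR unadjusted p = 0.773), and its sign turned without control 2 (-0.036) or without EFV 3 (-0.14).

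Mbp was read at more than 1 length. The files give for each library the mean length of the transcripts of a gene, weighted by their estimated abundance, and for Mbp this was 4419, 4439 and 4290 bases in control 1, 2 and 3, and 3701, 4350 and 3504 bases in EFV 1, 2 and 3. EFV 1 and EFV 3 had the shorter means and EFV 2 lay within the control range. The group means were 4383 ± 81.2 bases (SD, n = 3) in control and 3852 ± 443 bases (SD, n = 3) in EFV-treated mice (exact two-sided permutation test, p = 0.2, the smallest possible being 0.1). FPKM divides by a length close to this mean. The Mbp FPKM was 8.13, 8.58 and 7.98 in control and 10.9, 8.77 and 13.7 in EFV-treated mice, without overlap (exact two-sided permutation p = 0.1, the smallest possible with 3 against 3). The mean FPKM was 1.35 times the control mean, and the mean CPM 1.15 times. With the gene length of each library as an offset in edgeR, an alternative chosen after the data had been seen, the log2 fold change of Mbp was 0.41 (unadjusted p = 0.0121) against 0.20 without it.

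The lengths can be set beside the annotation of Mbp. Of the 11 transcripts that the files assign to Mbp, 8 are annotated and 3 were added by the authors' assembly without a length in the sources used here. Mbp has an upstream start, used by the longer transcripts called Golli, which neurons and immune cells are known to make, and a downstream start, used by the classic transcripts of myelin. The 6 annotated transcripts with the downstream start were 638 to 2070 bases long when spliced, and the 2 with the upstream start 2492 and 4797 bases. The mean length in each of the 6 libraries was above that of the longest classic transcript, and it was nearest to it in EFV 3. What share of the reads came from either start was not tested, since the values are per gene.

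**Figure D2:**
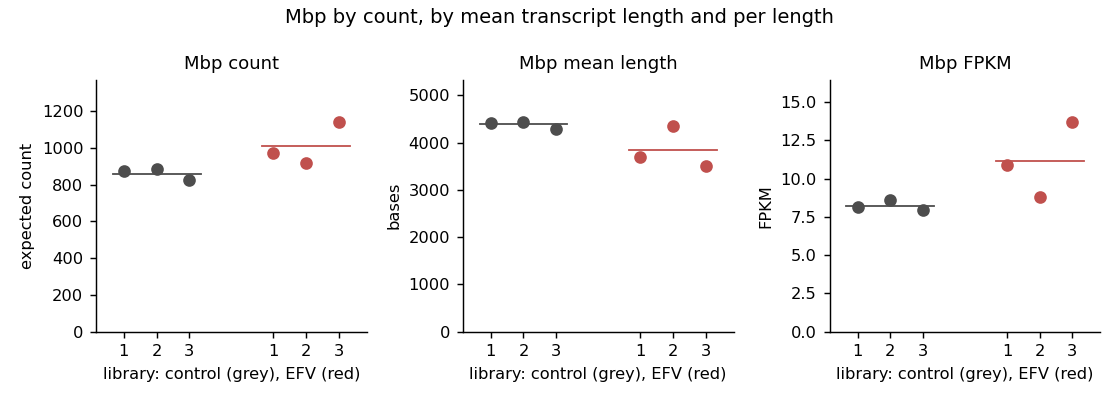
Mbp in the 3 control (grey) and 3 EFV (red) libraries by expected count, by the mean length of its transcripts in bases and as FPKM; points are libraries, lines are group means and the y axes start at 0. EFV 1 and EFV 3 have the shortest means (3701 and 3504 bases) and the highest FPKM (10.9 and 13.7).

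Bcas1, a marker of oligodendrocytes that are starting to myelinate, followed Mobp. It had 2, 1 and 1 counts in the control pools and 19, 0 and 17 in the EFV pools. Mobp and Bcas1 together had 2, 2 and 1 counts in control and 33, 0 and 28 in EFV-treated mice. EFV 1 and EFV 3 were thus high for both genes, and EFV 2 had 0 counts of either, where a count of 0 allows up to 0.124 CPM, while Mobp stood at 0.567 CPM in EFV 1 and 0.449 CPM in EFV 3. Both genes had 10 or more counts in 2 libraries only, which is under the minimum of 3 for a test. Summed over the pools and per total count, the EFV to control ratio was 24.8 for Mobp (95% exact interval 4.06 to 1018, from 25 against 1 counts) and 8.92 for Bcas1 (3.20 to 34.5, from 36 against 4 counts). These intervals cover counting error only, and not the spread between EFV 2 and the other EFV pools. When the minimum was dropped, edgeR gave an unadjusted p of 0.0129 for Mobp and of 0.0186 for Bcas1, with an adjusted p of 0.999 for both.

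The same 2 pools did not stand out for every gene. Mag, the adhesion protein on the layer next to the axon, had 4, 8 and 15 counts in the control pools and 7, 2 and 15 in the EFV pools. The ratio of EFV to control was 0.881 for Mag (95% exact interval 0.487 to 1.59, 24 against 27 counts) and 1.24 for Mog (0.440 to 3.61, 10 against 8 counts). For both genes the interval includes equal levels and, at this depth, differences as large as its ends. Mag and Mog together had 9, 8 and 18 counts in control and 12, 4 and 18 in EFV-treated mice, with the highest values in control 3 and EFV 3.

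Cldn11, the claudin of the tight junctions in myelin, which cells of the meninges also make, had 10, 14 and 7 counts in the control pools and 15, 18 and 17 in the EFV pools. All 3 EFV pools were above the 3 control pools, and Cldn11 was the only one of the 5 tested genes without overlap in CPM. Over all 15537 genes tested, 3.95% were higher in EFV-treated mice without overlap and 4.16% lower, and 0 of the 5 genes were lower in this way. The log2 fold change was 0.65 (SE 0.35, edgeR unadjusted p = 0.0988, adjusted p = 0.999), and it was 0.43 without control 3 (edgeR unadjusted p = 0.287) and 0.96 without control 2 (edgeR unadjusted p = 0.0371). Markers of fibroblasts and meninges (9 genes, none at 0 in all libraries) summed to 64.5 to 116 CPM in control and 81.9 to 138 CPM in EFV-treated mice, with Col1a2 higher (log2 fold change 0.50, edgeR unadjusted p = 0.0312); their part in the level of Cldn11 was not tested.

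Of the enzymes, Cnp, a phosphodiesterase of cyclic nucleotides in non-compact myelin, had 374, 398 and 454 counts in the control pools and 371, 415 and 426 in the EFV pools. Ugt8a, which makes the galactosylceramide of myelin, had 10, 15 and 19 counts in control and 12, 14 and 16 in EFV-treated mice. Both overlapped between the groups. Their log2 fold changes were -0.045 for Cnp (SE 0.096, edgeR unadjusted p = 0.654) and -0.096 for Ugt8a (SE 0.35, edgeR unadjusted p = 0.788). Each changed sign when control 3 or EFV 1 was left out.

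In all, 5 of the 9 genes had enough counts to be tested (Mbp, Cnp, Mal, Cldn11 and Ugt8a), and 4 did not (Mobp, Mog, Mag and Bcas1). Of the 5, 1 gene, Mbp, was higher at the nominal threshold and 0 were lower. Over all genes tested, 1.47% were higher and 1.54% lower at this threshold. After Benjamini-Hochberg adjustment 0 of the 5 genes and 0% of all genes passed by edgeR, and 0 of the 5 passed by DESeq2 or limma. At an unadjusted p of 0.05 or less the edgeR count was 1 of 5. The median log2 fold change was 0.058 over the 5 genes and 0.0013 over all genes tested, with 3 of the 5 higher and 2 lower by sign. Of these, Mbp and Cldn11 kept their sign with each library left out in turn, and Mal, Cnp and Ugt8a did not. Mbp and Mal were highest in EFV 3, Mobp and Bcas1 in EFV 1, Cldn11 in EFV 2, and Mog, Mag, Cnp and Ugt8a in a control pool.

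**Figure D3:**
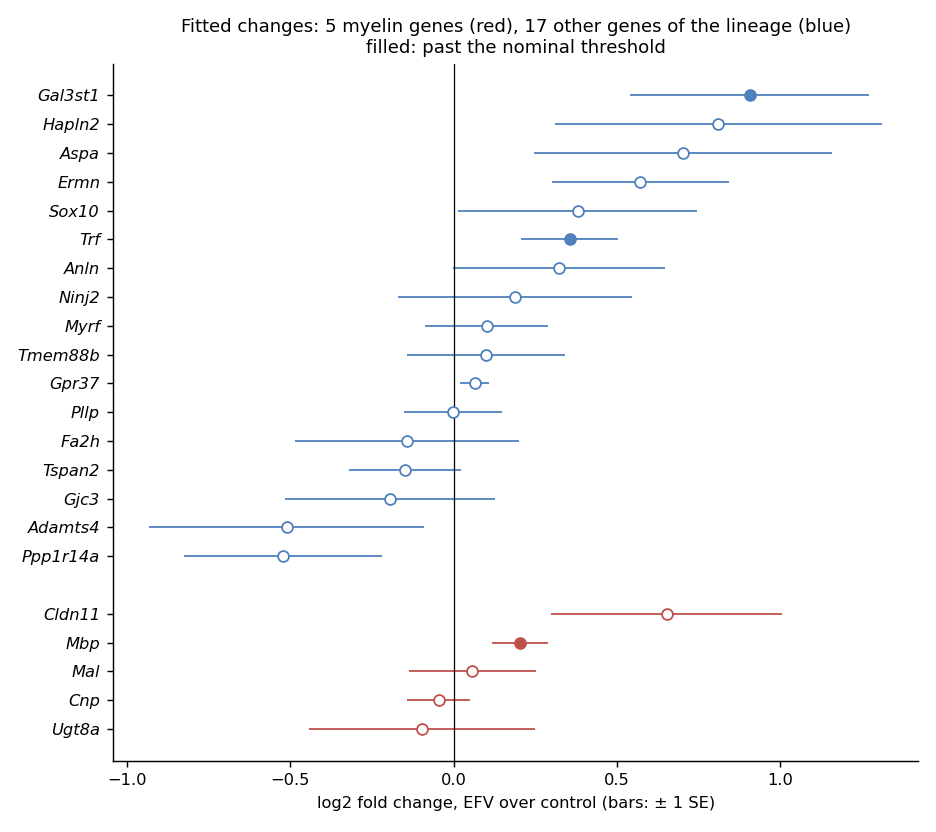
Log2 fold change, EFV over control (x axis; bars are 1 SE of the edgeR fit), of the 5 tested myelin genes (red) and 17 other genes of the lineage (blue); filled points passed the nominal threshold. Mbp is filled at 0.20, and Gal3st1 (0.91) and Trf (0.36) are the filled points among the blue ones. Of the 19 tested genes of the lineage list, 17 are drawn. The 1 gene of that list that was lower at the nominal threshold is not drawn.

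The rest of the oligodendrocyte program was read from a list of 28 genes, of which 27 were listed in the files and 19 could be tested. At the nominal threshold 2 were higher (Gal3st1 and Trf) and 1 was lower, beside 1.47% and 1.54% of all genes, and 0 passed after adjustment by edgeR. The median log2 fold change over the 19 genes was 0.10. Summed over the list, the level was 256 to 290 CPM in control and 283 to 318 CPM in EFV-treated mice, most of it from Gpr37 and Trf.

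Klk6, a protease of mature oligodendrocytes that was singled out after its values were seen, had 8 counts in EFV 3 and 0 in the other 5 libraries. It was among 8 genes of this list with under 10 counts in every library. Of these, summed over the pools, Opalin had 4 counts in control and 4 in EFV-treated mice. Gjb1 had 15 and 7, Enpp6 had 9 and 16, and Tmem125 had 0 and 1. These genes too were named after their values were seen. Olig1, Nkx6-2 and Nkx2-2 are given below.

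Gal3st1, which adds sulfate to the galactosylceramide that Ugt8a makes, had 15, 7 and 12 counts in control and 15, 24 and 26 in EFV-treated mice (log2 fold change 0.91, SE 0.37, edgeR unadjusted p = 0.0355). EFV 1 equalled control 1, and the other 2 EFV pools lay above all control pools. Trf, the iron carrier transferrin, which the RPE also makes, had 2153, 1563 and 2328 counts in control and 2099, 2911 and 2840 in EFV-treated mice (log2 fold change 0.36, SE 0.15, edgeR unadjusted p = 0.0396). With 1 library left out in turn, Gal3st1 passed the nominal threshold in 2 of 6 fits and Trf in 2, by edgeR, where the largest p was 0.113 for Gal3st1 and 0.148 for Trf. By DESeq2 neither passed (DESeq2 unadjusted p = 0.1003 for Gal3st1 and 0.0866 for Trf), and by limma on log2(FPKM + 0.1) Gal3st1 passed (limma unadjusted p = 0.0223) and Trf did not (limma unadjusted p = 0.0551). The libraries without which they did not pass were control 2, control 3, EFV 2 and EFV 3 for Gal3st1, and control 1, control 2, EFV 2 and EFV 3 for Trf. RPE markers (12 genes) summed to 503 to 594 CPM in control and 568 to 586 CPM in EFV-treated mice, most of it from Rlbp1, a retinaldehyde carrier that Müller cells also make. Of the 12, 10 were higher by sign with a median log2 fold change of 0.41, and 2 were higher at the nominal threshold (Rpe65 and Lrat), beside 1.47% of all genes. Control 2, the lowest pool for Trf, was also the lowest for 8 of the 12. This was not particular to the RPE list. Control 2 was the lowest for 6 of 9 fibroblast and meninges genes and 5 of 8 astrocyte genes. It was the lowest for 7 of the 27 other oligodendrocyte and myelin genes, and for 0 of 9 ganglion cell and 0 of 8 lens genes. The part of the RPE in the level of Trf was not tested.

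Of the other abundant genes of the list, Gpr37, a receptor of maturing oligodendrocytes, stood at 46.1 ± 1.01 FPKM (SD, n = 3) in control and 48.8 ± 1.47 in EFV-treated mice, far above Mbp. Pllp, a membrane proteolipid of myelin, was at 2.50 FPKM in both groups, and Ppp1r14a, an inhibitor of myosin phosphatase, at 2.31 ± 0.522 and 1.63 ± 0.393 (SD, n = 3). Gpr37, Pllp and Ppp1r14a did not pass the nominal threshold. Without overlap, 2 of the 19 tested genes of the list were higher and 1 was lower, beside 3.95% and 4.16% of all genes. The 2 higher ones were Ermn and Hapln2, named after their values were seen. Ermn had 21 to 39 counts in control and 40 to 57 in EFV-treated mice, and Hapln2 had 2 to 11 and 12. Neither passed the nominal threshold with all 6 libraries. Ermn passed it without control 3 and Hapln2 without control 1, by edgeR.

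The regulators of the lineage were low. Sox10, which turns on myelin genes, had 11 to 20 counts in control and 13 to 24 in EFV-treated mice, and Myrf, the factor that drives the myelin program, had 59 to 80 and 67 to 86. Olig1 had 0 to 3 counts in control and 1 to 4 in EFV-treated mice, Nkx2-2 had 0 to 5 and 0 to 5, and Nkx6-2 had 0 to 1 and 1 to 4. Olig2 was not among the listed genes. The regulators that could be tested, Sox10 and Myrf, did not pass the nominal threshold (log2 fold change 0.38, edgeR unadjusted p = 0.325, and 0.10, edgeR unadjusted p = 0.603).

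Markers of the tissues that surround or enter the optic nerve were read beside these values. Of 9 oligodendrocyte precursor genes 7 were tested and 0 passed the nominal threshold. The 9 genes summed to 313 to 319 CPM in control and 311 to 325 in EFV-treated mice, with C1ql1 (80.8 FPKM) and Lhfpl3 (30.0 FPKM) the highest per length. The 2 not tested were Gpr17, with 0 to 1 counts per library, and Neu4, with 1 to 4, both named after their values were seen. Which cells made the transcripts of this list was not tested. Pdgfra, the receptor that defines precursors and the gene of that list with the smallest p, had 514 counts in control and 576 in EFV-treated mice over 3 pools each. Of 8 astrocyte genes 0 passed, with sums of 216 to 220 CPM in control and 201 to 228 in EFV-treated mice. Within that list Gfap, the filament protein of astrocytes and of reactive Müller cells, had 273, 198 and 299 counts in control and 436, 237 and 359 in EFV-treated mice. Gfap was thus highest in EFV 1 and EFV 3, the pools with the counts of Mobp and Bcas1, and EFV 2 lay within the control range (log2 fold change 0.40, SE 0.21, edgeR unadjusted p = 0.0870). EFV 1 and EFV 3 were the highest 2 pools for 3 of the 8 astrocyte genes (Gfap, S100b and Slc14a1) and not for the rest, among them Gja1, a connexin named after its values were seen, with 147, 101 and 252 counts in control and 110, 280 and 112 in EFV-treated mice.

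Ganglion cell genes, whose transcripts lie mostly in the cell bodies in the retina, summed to 894 to 986 CPM in control and 897 to 955 in EFV-treated mice, and 0 of 9 passed. Of 9 genes of peripheral myelin, which Schwann cells make, 7 were tested and 0 passed, with sums of 48.9 to 60.2 CPM in control and 45.2 to 54.1 in EFV-treated mice. Of the remaining lists, 0 of 8 rod, 0 of 6 tested microglia and 0 of 6 endothelium genes passed, and all 7 tested lens genes were lower, with the high value in control 3. Apart from Olig2, no gene of any list was at 0 in all libraries. Optic nerve in the pools was not measured as such, and the part of other tissue in the counts of Mobp, Bcas1 and Mbp was not tested.

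**Figure D4:**
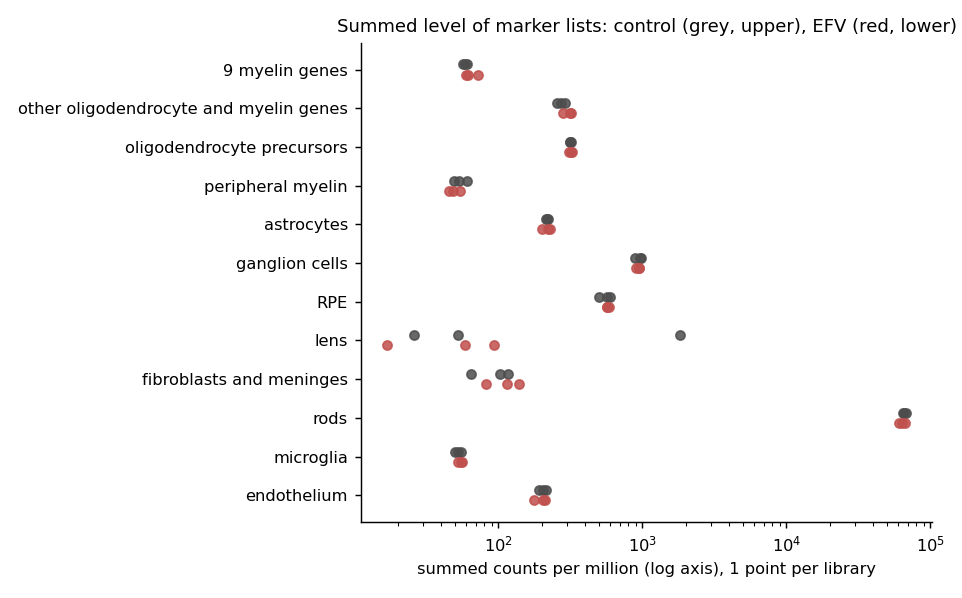
Summed level of each list of marker genes in CPM (log axis), 1 point per library, with control (grey) in the upper and EFV (red) in the lower line of each list. The 9 myelin genes sum to 56.4 to 72.5 CPM, the highest in EFV 3, and the lens list is at 1822 CPM in control 3.

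The mean log2 CPM of the 9 genes was -0.092, -0.065 and 0.034 in control 1, 2 and 3, and 0.63, -0.23 and 0.80 in EFV 1, 2 and 3. Bcas1 and Mobp had the widest ranges in this mean, 3.37 and 2.98 on the log2 scale, and Cnp and Mbp the narrowest, 0.32 and 0.46. The 10 genes with the most similar pattern over the 6 libraries, of 14372 compared, were Enkd1, Tmem30c, Wdr20, Acaa1b, Pigc, Eif2b1, Chst12, Mgat5b, Krt5 and Tmem19, with a Pearson r of 0.974 to 0.988 as a description. Krt5, a keratin of stratified epithelia, had 32, 31 and 37 counts in control and 61, 27 and 56 in EFV-treated mice. None of the 10 is on the oligodendrocyte lists. Gfap ranked 216th with an r of 0.853.

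The counts of some genes could hold reads of a neighbour on GRCm38.p6, since the strandedness of the counting is not given in the sources used here. Cnp (chr11:100574909-100591875, plus strand) overlaps the coding gene Dnajc7 on the opposite strand. Bcas1 (chr2:170343973-170427911, minus strand) overlaps the antisense genes Bcas1os1 and Bcas1os2, and reads of these and of Bcas1 cannot be told apart. Mbp (chr18:82475091-82585637, plus strand) overlaps a processed pseudogene, Mobp (chr9:120149742-120181488, plus strand) a noncoding gene on its own strand, and Mog (chr17:37010740-37023398, minus strand) a small noncoding RNA on the other strand. Mag (chr7:30899175-30914922, minus strand), Mal (chr2:127633226-127656695, minus strand), Cldn11 (chr3:31149920-31164326, plus strand) and Ugt8a (chr3:125865272-125938682, minus strand) overlap no annotated gene.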

How the data were processed

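RNA was sequenced from 6 pools of retina plus RPE, 3 control and 3 EFV-treated. Per the labels, the tools were HISAT2 2.0.4, Bowtie2 2.2.5 and RSEM 1.2.12 on mm10. Gene-level expected counts are RSEM output as deposited, with no normalization. The deposited FPKM values divide them by the library total and by a length below the mean transcript length, which is another deposited column. Both columns are rounded. The annotation release and strandedness are not given in the sources used here. A gene missing from a library was taken as 0.

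Expected counts were rounded, and edgeR tested the 15537 genes that reached 10 counts in 3 or more libraries, using version 4.0.16 (R 4.3.3): quasi-likelihood test, TMM scaling (factors 0.984 to 1.01), group as the only term, two-sided, Benjamini-Hochberg adjustment over all genes. The biological coefficient of variation was 0.0983, 1 value common to all genes, and for genes near the minimum of 10 counts counting error exceeds this value. The spread of a single gene between pools can be larger, as for Mobp with 14, 0 and 11 counts in the EFV pools. Intervals are exact 95% (Clopper-Pearson) and, as the limit of 3 counts set by a count of 0, cover counting error only. CPM uses TMM-scaled library totals. The smallest exact permutation p that 3 pools against 3 allow is 0.1. The script was tested on simulated data. Any 2 libraries differed by more than sampling noise (chi-square divided by its degrees of freedom 5.40 to 13.3).

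The genes and lists were chosen with earlier results of these data known. Mbp, Mobp and Bcas1, and of the other lists Gfap, Egr2, Rpe65, Lrat, Slc16a8, Col1a2 and several lens genes, are in the study's list of changed genes. Genes named were the 9 genes; of the oligodendrocyte list the 5 most abundant, the 3 with the smallest p and the regulators; of each other list at most the 2 most abundant and the one with the smallest p; and the 10 most similar over the libraries. Any gene named beyond that rule is marked in the text, and some genes that the rule names are not reported here. Alternatives were RLE, upper quartile and total count scaling, other filters, DESeq2 1.42.0, limma 3.58.1 on log2(FPKM + 0.1) and log2(FPKM + 1), a Poisson model, a replicate block, leaving out each library and, added after the data had been seen, a gene length offset.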

Additional observations from a re-analysis of the deposited data

How the results depend on the processing

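Mbp and Cldn11 were higher in EFV-treated mice under all alternatives that tested them. The count of myelin genes past the nominal threshold, 1 of 5 by edgeR, was 3 of 9 without a filter on low counts (Mbp, Mobp and Bcas1), 2 with limma on log2(FPKM + 0.1) and 2 with the Poisson model (Mbp and Cldn11 in both), and 0 to 2 with 1 library left out. After adjustment it was 0 except with the Poisson model (1, Mbp), which leaves out the spread between pools. The median log2 fold change of the myelin genes was 0.20 without a filter, where it covers 9 genes, and -0.084 to 0.16 with 1 library left out, -0.084 being without EFV 3. With 1 library left out, the log2 fold change of Cnp ranged from -0.12 to 0.028, of Mal from -0.14 to 0.16 and of Ugt8a from -0.32 to 0.12. The count of other oligodendrocyte genes past the nominal threshold, 3, was 0 with DESeq2, 8 with the Poisson model and 0 to 4 with 1 library left out. Over all genes, 0 passed after adjustment by edgeR, 11 by DESeq2, 0 by limma on log2(FPKM + 0.1) and 2042 with the Poisson model, and 473, 270, 495 and 3901 had an unadjusted p of 0.05 or less. The cause of these differences was not tested.

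The same replicate numbers in both groups gave correlations of deviations of 0.125, 0.0835 and 0.0992, and different numbers gave -0.101 to -0.00625. Each library thus correlated best with its own number, a hint from the data and not from the design. The sources used here name no pairing, so the main fit left the number out. Whether same-numbered pools share more than a number was not tested. With the replicate block 0 myelin genes passed the nominal threshold (Mbp 0.20, edgeR unadjusted p = 0.0635) and 2 of the other oligodendrocyte genes did (Gal3st1 did not, edgeR unadjusted p = 0.0606).

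At this depth genes with a few counts, such as Mog and Mag, can show only large differences.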

Other observations

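Control 3, the pool with the lens counts, also had the most counts of 2 genes of peripheral myelin, named after their values were seen. Prx, a scaffold protein of Schwann cell myelin, had 42 counts there and 3 to 12 in the other 5 libraries, and Egr2, the regulator of that myelin, had 18 and 1 to 4. Egr2 is in the list of changed genes that the study drew from these libraries, so its direction is no independent evidence. The relation of these counts to the lens counts was not tested.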
